A study of Homo sapiens with 11 samples.

Results

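Replication-dependent histone genes encode the H1, H2A, H2B, H3 and H4 proteins that package newly copied DNA. They were taken as the rows of the expression table whose Ensembl identifier carried one of the symbols H1-1 to H1-6, H2AC, H2BC, H3C or H4C followed by a number. This gave 64 of the 37247 gene rows, with 6 H1, 15 H2A, 18 H2B, 10 H3 and 15 H4 genes. Of the 69 genes with such symbols, H2AC18, H2AC19, H3C2, H3C3 and H3C15 had no matched row, so the H2A and H3 sums are incomplete. RNA sequencing was done in MDA-MB-231, an established human breast cancer line, with 3 controls labelled Control-KD (genotype WT) and 3 libraries labelled H2AS40-KD (genotype given as a knockdown of S40-type H2A), called the knockdown libraries below after their label. The cells were kept in DMEM with fetal bovine serum. The S40 type is H2A with a serine at residue 40. The labels give no gene, agent, dose or time for the knockdown, nor do they state that replicates came from separate cultures. Each p-value therefore rests on library-to-library spread alone, and that spread may be technical. The 4 chromatin immunoprecipitation samples of the series and their input sample were not analysed here.

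Copying the genome calls for new histones, and these genes are switched on together as cells enter S phase. Their short, intronless messages usually end in a stem-loop instead of a poly(A) tail, and the stem-loop binding protein SLBP carries them through processing, translation and decay. H2A, H2B, H3 and H4 form the nucleosome core, while H1 binds the linker DNA between cores. Several of the genes are also known to give polyadenylated messages, among them H1-2, H2AC6, H2BC4, H2BC5, H2BC12 and H2BC21, and these 6 are called the polyadenylation list below.

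Values were gene-level transcript abundances in TPM, which divide reads by gene length and scale each library to a total of 1000000. Gene length is thus allowed for, but the length used for each gene and the sequencing depth are unknown. The labels' protocols do not say how messenger RNA was selected, which matters for messages that can lack a poly(A) tail. Capture may therefore differ between histone genes and classes, and comparisons between them hold for the deposited TPM alone. From 14073 to 14120 genes had at least 1 TPM per library. On the first principal component (29.6% of the variance) replicate 3 of the controls lay at -31.2, away from the other libraries at -0.784 to 12. Of the markers fixed for the line, VIM, CD44, AXL and CAV1 are mesenchymal genes. They summed to 2966 to 2979 TPM in the controls and 2861 to 2905 TPM in the knockdown libraries. VIM, at a mean of 2264 TPM, made up most of this and overlapped between the groups. The others were lower in every knockdown library, as were 11.3% of all tested genes. CD44 had 353, 365 and 358 against 313, 296 and 322 TPM. AXL had 205, 202 and 205 against 190, 194 and 193 TPM. CAV1 had 143, 149 and 156 against 117, 108 and 109 TPM. The part of these genes in the histone values was not tested. The genes fixed as low or absent were not all so. EPCAM averaged 167 TPM, the epithelial cadherin CDH1 59.4 TPM and the oestrogen receptor ESR1 17.2 TPM, whereas PGR averaged 1.75 TPM. Endothelial markers summed to 0.579 to 1.07 TPM and fibroblast markers to 5.88 to 10.4 TPM, most of it COL1A1. Of blood markers, CD14 averaged 1.01 TPM and PTPRC 0.308 TPM, and CD3E was listed at 0 in 5 libraries and HBB in 4.

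The 64 genes held between 0.177% and 0.196% of all TPM, and most of that came from a few genes. H2B was the most abundant class, followed in order by H4, H1, H2A and H3. In Control-KD, H2B summed to 861 ± 8.49 TPM, H4 to 386 ± 17.7 TPM, H1 to 293 ± 5.77 TPM, H2A to 217 ± 9.47 TPM and H3 to 47.3 ± 3.63 TPM (SD, n = 3 each). No library of any class overlapped with the next class in this order, in either group. The core histones enter the nucleosome in equal numbers, but H2B messages exceeded H2A messages by a factor of 3.97 ± 0.206 in Control-KD and 4.15 ± 0.00913 in the knockdown libraries (SD, n = 3 each), where 2 of 17 H2A genes had no row. H4 exceeded H3 by a factor of 8.19 ± 0.619 and 7.91 ± 0.609 (SD, n = 3 each), where 3 of 13 H3 genes had no row. In Control-KD the polyadenylation list made up 756 TPM of the H2B mean and 82.0 TPM of the H2A mean. It holds no H3 or H4 gene. As RNA selection is not stated, its part in these ratios was not tested. Histone genes outside the chosen symbols were not counted.

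H1 was almost wholly a single gene. H1-2, a somatic linker histone on chromosome 6, held 97.9% of the class, and H1-4, H1-3, H1-6, H1-5 and H1-1 together held the rest at 2.78 TPM or less each. H2B was led by H2BC12 with 55.6% and H2BC5 with 22.4%, followed by H2BC11 and H2BC4, and these 4 genes held 89.4%. In the H2A class H2AC6 held 38.7%, H2AC25 14.8%, H2AC8 11.9% and H2AC20 11.5%. H4 was led by H4C14 with 35.5% and H4C8 with 23.0%, followed by H4C11 (19.3%) and H4C9 (11.6%). H3 had no clear leader, with H3C14 at 25.8%, H3C10 at 24.6% and H3C13 at 15.1%. Many of these genes share long stretches with near-identical copies, and how the authors assigned such reads is not known, so levels of single genes are uncertain. H1-2, H2BC12, H2BC5, H2BC4 and H2AC6 are on the polyadenylation list, and no other H1 gene is. How messenger RNA was selected is not stated, so these shares describe the libraries and may differ from those in the cells.

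**Figure D1:**
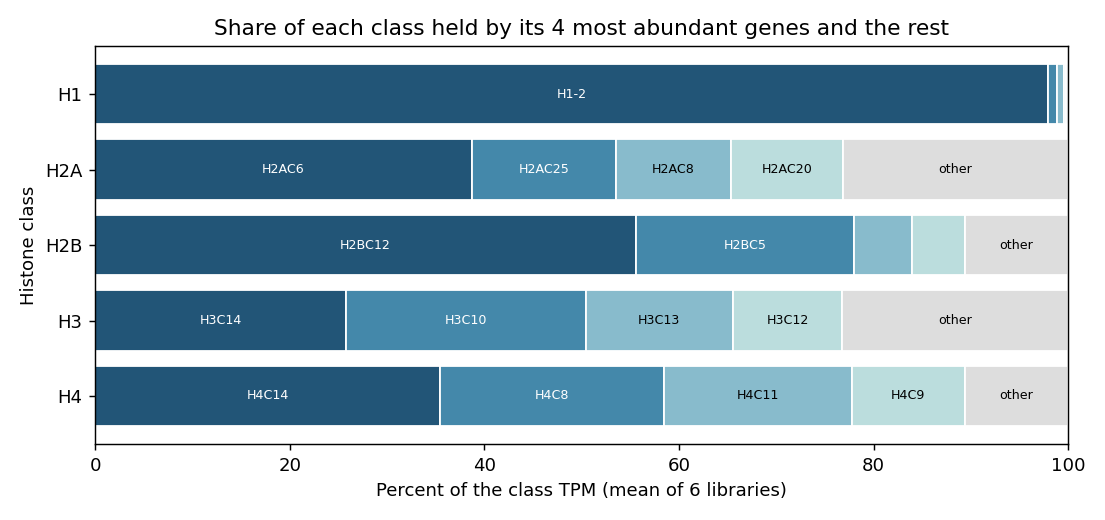
Percent of each class's TPM (x axis, mean of 6 libraries) held by its 4 most abundant genes and by all others, 1 bar per class. H1-2 fills 97.9% of H1 and H2BC12 55.6% of H2B, whereas the leading H3 gene, H3C14, holds 25.8%.

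Low genes were many. Of the 64 genes, 22 averaged at least 10 TPM and 17 averaged under 1 TPM, and H3C4, H4C7, H4C12 and H4C13 were listed at 0 in all 6 libraries, which in TPM without counts may be a failed estimate. The 4 genes of at least 100 TPM (H2BC12, H1-2, H2BC5 and H4C14) held 60.5% of the summed TPM, with a median coefficient of variation within groups of 2.23%. In the 18 genes from 10 to 100 TPM it was 9.59%, and in the 25 genes from 1 to 10 TPM it was 32.3%. The precision of a comparison therefore followed the level of the gene.

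The promoters of the leading gene of each class and of H2BC5, the gene that passed the test below, are shown because sequence elements differ between the classes. Each line gives the 150 bases before the annotated start, in the direction of transcription, from RefSeq's GRCh38.p14. Capitals mark TATAAA (a form of the TATA box), CCAAT (bound by NF-Y), ATTTGCAT (the octamer bound by OCT1, known from H2B promoters) and GGTCC (part of the H4 element bound by HINFP), each on either strand, and no match overlapped another in these stretches. Only these exact letters were searched, so other forms of an element stay in lower case and a missing match does not show that the element is absent.
H1-2 (chr6:26056471-26056620, minus strand): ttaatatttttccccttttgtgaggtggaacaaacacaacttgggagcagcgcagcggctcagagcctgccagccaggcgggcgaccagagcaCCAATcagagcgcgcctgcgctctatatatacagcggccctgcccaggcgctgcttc
H2AC6 (chr6:26124022-26124171, plus strand): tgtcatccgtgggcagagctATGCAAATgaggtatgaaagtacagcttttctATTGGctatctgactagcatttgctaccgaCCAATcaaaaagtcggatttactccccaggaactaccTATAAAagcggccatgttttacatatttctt
H2BC12 (chr6:27146859-27147008, minus strand): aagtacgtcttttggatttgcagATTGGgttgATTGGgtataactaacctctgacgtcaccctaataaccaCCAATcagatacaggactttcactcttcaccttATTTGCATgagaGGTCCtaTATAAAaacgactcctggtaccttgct
H2BC5 (chr6:26157971-26158120, plus strand): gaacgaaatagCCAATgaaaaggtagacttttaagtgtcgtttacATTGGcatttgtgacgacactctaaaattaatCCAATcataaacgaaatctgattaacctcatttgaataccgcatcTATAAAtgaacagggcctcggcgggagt
H3C14 (chr1:149841209-149841358, minus strand): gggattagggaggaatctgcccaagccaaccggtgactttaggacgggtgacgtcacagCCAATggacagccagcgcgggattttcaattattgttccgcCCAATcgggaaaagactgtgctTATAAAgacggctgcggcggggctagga
H4C14 (chr1:149832507-149832656, plus strand): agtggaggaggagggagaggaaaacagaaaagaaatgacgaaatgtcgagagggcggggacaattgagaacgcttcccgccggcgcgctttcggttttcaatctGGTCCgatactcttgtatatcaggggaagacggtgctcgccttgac

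Over the 250 bases before the start, searched on both strands, promoters were at hand for 59 of the 64 genes (not for H2AC12, H3C11, H3C12, H4C1 and H4C3). CCAAT was present in all 6 H1, 14 H2A, 18 H2B and 8 H3 promoters but in 3 of 13 H4 promoters, where 33.0% of 27305 promoters of all genes held it. The octamer ATTTGCAT was in 14 of 18 H2B and 11 of 14 H2A promoters, against 1.66% of all promoters. Neighbouring H2A and H2B genes share much of this stretch, so these are not independent. GGTCC was in 12 of 13 H4 promoters (40.4% of all promoters) and TATAAA in 38 of the 59 (11.1% of all promoters). H2BC12 held the octamer 46 bases before its start, while H2BC5 was among the 4 H2B genes in which these letters were not found, with H2BC15, H2BC13 and H2BC26. H2B genes with the octamer ran from 0.142 TPM (H2BC1) to 503 TPM (H2BC12), and those without it from 0.485 TPM (H2BC26) to 203 TPM (H2BC5).

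Many H2A and H2B genes lie side by side. There were 12 such neighbours with under 500 bases between their annotated ends, and H2B was the higher of the pair in 6 and H2A in 6. Only 5 of the 12 pairs had both genes at 5 TPM or more on average, and the split counts the others as well. The levels of neighbours could differ widely. H2BC12 averaged 503 TPM beside H2AC12 at 2.05 TPM, a ratio of 246 over 247 intervening bases. In the opposite sense H2AC25 averaged 33.0 TPM beside H2BC26 at 0.485 TPM, a ratio of 68.0. The lower gene of both pairs had very low TPM, so the size of these ratios is uncertain. H2AC12 ran from 0.725 to 3.62 TPM over the libraries. H2BC12 is on the polyadenylation list and H2AC12 is not, and the part of RNA selection in their ratio was not tested. H2AC6 and H2BC4 were closer, at 86.4 and 49.9 TPM, as were H2AC20 and H2BC21, at 25.5 and 39.4 TPM. H2BC12's annotated span holds H4C9 (chromosome 6, 27139282 to 27139678) and the labels do not say whether strand was kept, so reads from the overlap cannot be told apart.

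**Figure D2:**
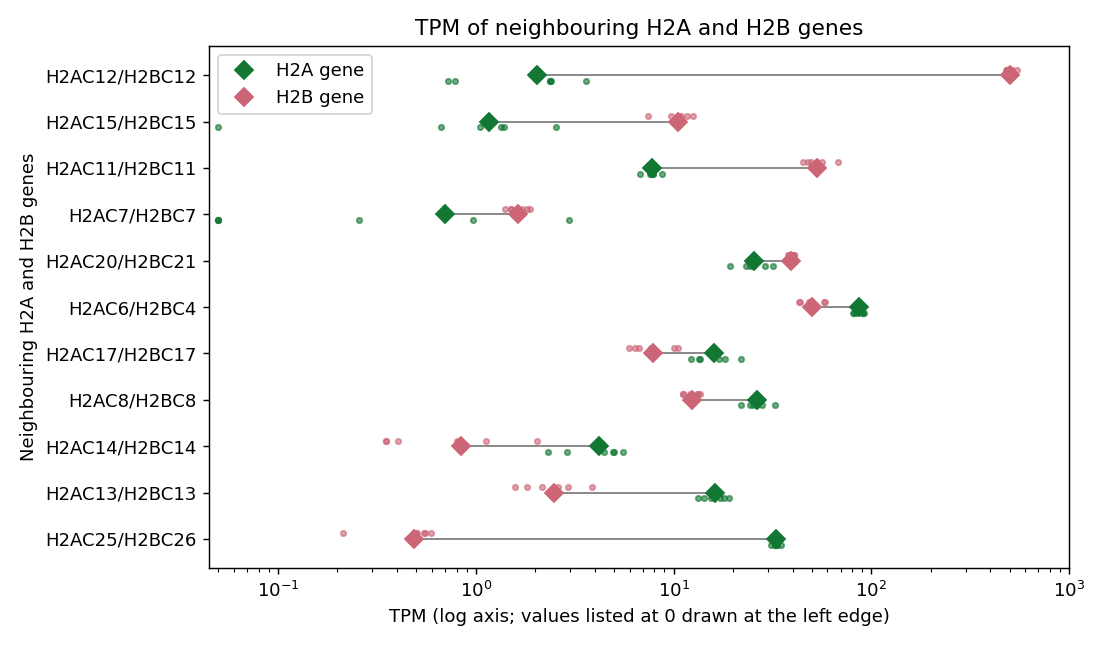
TPM (x axis, log scale) of neighbouring H2A and H2B genes in 11 of the 12 pairs (H2AC1 and H2BC1, both under 0.5 TPM, are left out), with a small point for each of 6 libraries and a diamond for their mean. H2BC12 stands 246 times above H2AC12, and H2AC25 stands 68.0 times above H2BC26. H2AC12 and H2BC26 averaged only 2.05 and 0.485 TPM, so the size of these ratios is uncertain.

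Between the labels, the summed TPM of the 64 genes was 1774, 1823 and 1818 in Control-KD and 1908, 1956 and 1907 in the knockdown libraries. The knockdown libraries were all higher, by 6.54% in the mean (1805 ± 27.1 against 1923 ± 28.1 TPM, SD, n = 3 each). Because the genes were chosen with results known, sums are described without a p-value. In bulk RNA, fewer cells expressing a gene and less RNA per cell cannot be told apart. The difference of 118 TPM was made up of 148 TPM from 38 genes with a higher mean, and -30.2 TPM from 22 genes with a lower one. H2BC12 and H2BC5 together gave 68.9 TPM of it, while H1-2 gave the largest difference in the other direction, at -13.2 TPM.

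By class, H2B and H2A sums were higher and H1 sums lower in every knockdown library than in every control, while H3 and H4 overlapped. Of all single genes tested, 24.2% did not overlap between the groups either. H2B summed to 868, 852 and 864 TPM in the controls and to 926, 958 and 962 TPM in the knockdown libraries. These groups did not overlap, and the difference of 87.3 TPM (10.1%) exceeded the SDs of 8.49 and 19.8 TPM. H1 summed to 288, 299 and 293 TPM against 282, 277 and 280 TPM, so every knockdown library was lower than every control, with a difference in means of -4.70%. H1-2 held 97.9% of this class, so the H1 sum follows that gene. H2A summed to 206, 223 and 223 TPM against 223, 231 and 231 TPM. The H2A groups parted narrowly, since the highest control was at 222.9 TPM and the lowest knockdown library at 223.5 TPM, and the mean difference of 11.4 TPM was close to the control SD of 9.47 TPM. Without H2AC6 the other H2A genes summed to 135 ± 9.33 against 138 ± 4.13 TPM (SD, n = 3 each), a difference of 1.95% with overlap. H4 (386 ± 17.7 against 414 ± 25.5 TPM) and H3 (47.3 ± 3.63 against 52.6 ± 5.57 TPM, SD, n = 3 each) overlapped between labels.

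As a share of all 64 genes, H1 was 16.2 ± 0.154% in Control-KD and 14.5 ± 0.340% in the knockdown libraries (SD, n = 3 each), with no overlap. The shares of H2A, H2B, H3 and H4 overlapped between the groups, with H2B at 47.7 ± 1.12% and 49.3 ± 1.002% (SD, n = 3 each). A share depends on all 5 sums, so it is not a separate measurement.

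**Figure D3:**
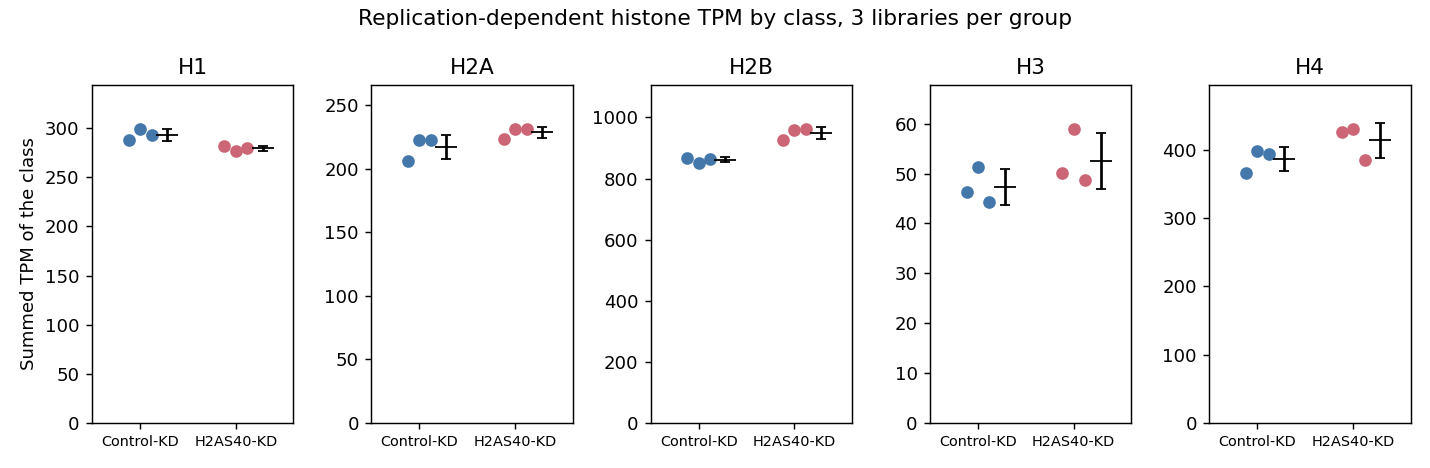
Summed TPM of each class (y axis from 0) in 3 Control-KD and 3 H2AS40-KD libraries, with a point for each library and the mean with SD at its right. The groups do not overlap in H1 (lower in H2AS40-KD), H2A and H2B (higher), and overlap in H3 and H4.

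The genes of the polyadenylation list carried 75.2 TPM of the difference. They summed to 1126, 1128 and 1120 TPM in the controls and to 1188, 1190 and 1222 TPM in the knockdown libraries, with no overlap. The other 58 genes summed to 681 ± 27.95 and 724 ± 40.4 TPM (SD, n = 3 each), which overlapped. In proportion, the means differed by 6.69% and 6.29%, and the polyadenylation list held 62.3 ± 0.9997% and 62.4 ± 1.61% of the summed TPM (SD, n = 3 each). Within H2B, its 4 genes summed to 756 ± 5.47 against 835 ± 19.3 TPM and the other 14 to 106 ± 8.23 against 114 ± 14.9 TPM (SD, n = 3 each). H1-2, on the same list, was the exception in direction.

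By position in GRCh38.p14, the genes fell into 6 groups on chromosomes 1, 6 and 12, split at gaps of 300000 bases. The first part of the large chromosome 6 cluster (25726063 to 26285534, 32 matched genes, led by H1-2) summed to 761 ± 5.31 and 821 ± 13.95 TPM (SD, n = 3 each). The small group at 27132316 to 27147562 of chromosome 6 (5 genes, led by H2BC12) summed to 589 ± 0.661 and 637 ± 20.1 TPM (SD, n = 3 each). Neither overlapped between labels. The third chromosome 6 group (27807479 to 27893891, 16 genes, led by H4C11) and the chromosome 1 group at 149782689 to 149887965 (8 matched genes, led by H4C14) overlapped, at 154 ± 14.97 and 158 ± 6.27 TPM and at 262 ± 9.44 and 267 ± 16.9 TPM (SD, n = 3 each). H2AC25 with H2BC26, further along chromosome 1, and H4C16 on chromosome 12 also overlapped.

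Single genes were tested with limma on log2(TPM + 1) across all 14160 genes that had at least 1 TPM in at least 3 libraries, with Benjamini-Hochberg adjustment over all of them and a threshold of 0.05. Of the 64 genes, 47 passed that filter and 17 did not. H2BC5 alone was called, where 1.26% of all tested genes were called in either direction, 0.516% as higher and 0.742% as lower. An unadjusted limma p under 0.05 was found in 10 of the 47, beside 16.5% of all tested genes. A positive log2 fold change was found in 31 of the 47, beside 53.1% of all tested genes. Groups did not overlap in 7 of the 47, 6 of them higher, where 24.2% of all tested genes did not overlap and 12.9% were higher and 11.3% lower without overlap. Among the 6 is H2BC10, which averaged 0.792 TPM in the controls and passed the filter through the libraries in which it was high. The median log2 fold change was 0.09 over the 47 genes and 0.01 over all tested genes.

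**Figure D4:**
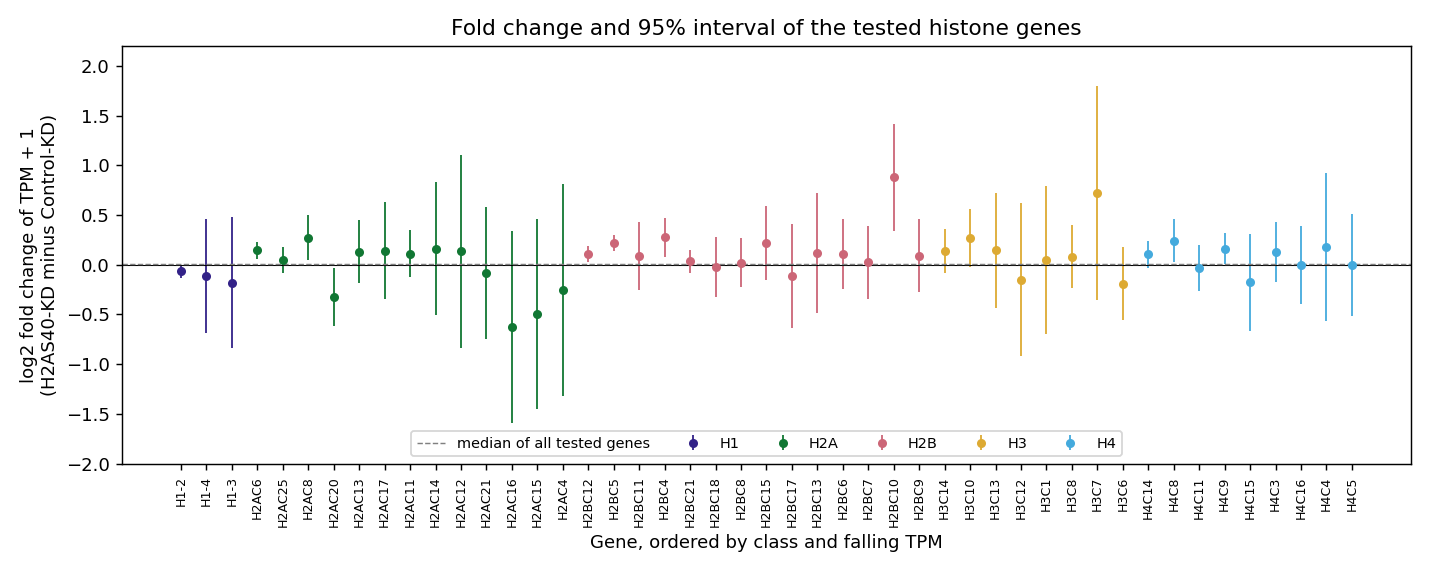
Log2 fold change of TPM + 1 (y axis, H2AS40-KD minus Control-KD) with limma's 95% interval for the 47 tested genes, coloured by class and ordered by falling TPM within a class. H2BC5 (0.22) is the 1 gene called, and intervals widen towards the low genes at the right of each class.

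H2BC5 (ENSG00000158373.8), an H2B gene on chromosome 6 of GRCh38.p14 (26158121 to 26171349), had 192, 186 and 184 TPM in the controls, against 217, 214 and 224 TPM in the knockdown libraries. All 3 knockdown libraries lay above all controls. It rose by 16.6% in mean TPM, with a log2 fold change of 0.22 (SE 0.0335, 95% interval 0.14 to 0.30) and a limma adjusted p of 0.0353. The call was lost without any 1 of the 6 libraries (limma adjusted p from 0.0597 to 0.155, log2 fold change from 0.20 to 0.24) and with no filter on low values, no intensity trend or the replicate number as a term. Its annotated span also holds the long non-coding RNA gene H2BC6-AS1 and a pseudogene, LARP1P1.

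H2BC12 (ENSG00000197903.7; chromosome 6, 27138293 to 27146858), the most abundant gene of all 64, had 481, 486 and 486 TPM in the controls, against 507, 515 and 544 TPM in the knockdown libraries. The groups did not overlap, but the difference was not called (log2 fold change 0.11, 95% interval 0.03 to 0.18, limma adjusted p = 0.182). H2BC4 had 48.4, 43.7 and 42.9 TPM against 57.5, 58.0 and 48.8 TPM. Its groups lay apart only narrowly, and it was not called (log2 fold change 0.28, limma adjusted p = 0.178). H2BC11 ranged from 45.0 to 56.2 TPM in the controls, and from 47.8 to 68.1 TPM in the knockdown libraries, with overlap (limma adjusted p = 0.81). H2BC21, the other H2B gene of the polyadenylation list, had means of 39.0 and 39.9 TPM and a 95% interval of -5.66% to 10.8% on the TPM + 1 scale.

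The labelled target of the knockdown is a type of H2A, but whether the genes tested here encode it was not analysed. Among H2A genes limma made 0 calls in 13 tested, and 3 (H2AC6, H2AC8 and H2AC20) had an unadjusted p under 0.05, beside 16.5% of all tested genes. H2AC6 had 81.8, 80.9 and 83.3 TPM in the controls, against 90.2, 90.4 and 91.8 TPM in the knockdown libraries. It was higher in each, with a 95% interval of 4.32% to 17.3% on the TPM + 1 scale that did not survive adjustment over all genes (limma adjusted p = 0.122). H2AC8 had 21.9, 25.2 and 24.4 TPM against 26.5, 28.01 and 32.8 TPM, again without overlap (limma adjusted p = 0.233). H2AC20 had 24.5, 32.0 and 29.1 TPM against 19.4, 25.1 and 23.2 TPM. It was the H2A gene of at least 10 TPM with a lower mean in the knockdown libraries, with overlap and no call (limma adjusted p = 0.27). H2AC25 had 32.4, 33.5 and 31.3 TPM against 33.3, 34.8 and 32.6 TPM, which overlapped. The labels name no H2A gene and no H2A protein sequence was used here. Which of these genes encode the serine form, if any, was therefore not analysed, and the knockdown could not be checked.

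H1-2 was the gene of at least 5 TPM whose knockdown libraries all lay below the controls. It had 282, 292 and 286 TPM in the controls, against 276, 272 and 273 TPM in the knockdown libraries. The difference was small and not called, with a log2 fold change of -0.07, a 95% interval of -8.86% to -0.0894% on the TPM + 1 scale and a limma adjusted p of 0.297. The other tested H1 genes were too low to compare closely: H1-4 had means of 2.95 and 2.61 TPM and H1-3 of 2.02 and 1.73 TPM, with limma intervals of -37.9% to 37.7% and -44.1% to 39.5%.

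Among the 9 tested H4 genes limma made 0 calls, and 2 genes (H4C8 and H4C9) had an unadjusted p under 0.05, beside 16.5% of all tested genes. H4C14 had 133, 133 and 143 TPM in the controls, against 154, 152 and 135 TPM in the knockdown libraries. Knockdown replicate 3 lay among the controls, so the groups overlapped (limma adjusted p = 0.439). H4C8 had 81.1, 89.9 and 81.3 TPM against 109, 105 and 86.4 TPM, and the same library lay within the control range (limma adjusted p = 0.262). H4C11 had means of 77.9 and 76.2 TPM. H4C9, inside the H2BC12 span, had means of 43.8 and 49.1 TPM (limma adjusted p = 0.292). Of 8 tested H3 genes 0 were called and 0 had an unadjusted limma p under 0.05. H3C10 had 10.9, 13.1 and 9.25 TPM in the controls, against 13.2, 14.2 and 13.1 TPM in the knockdown libraries, overlapping at 13.1 TPM (limma adjusted p = 0.338), while H3C14 had means of 12.2 and 13.5 TPM and H3C13 of 7.12 and 7.98 TPM.

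**Figure D5:**
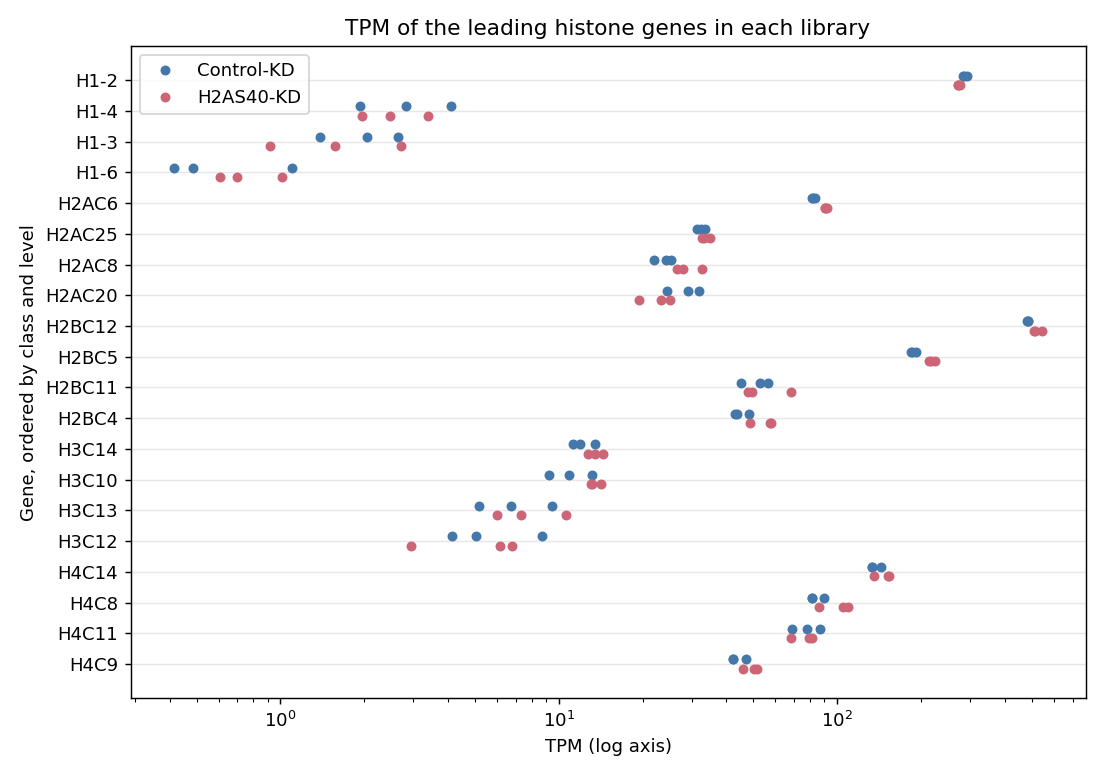
TPM (x axis, log scale) of the 20 named genes in each of 3 Control-KD and 3 H2AS40-KD libraries, 1 point per library. H2AC6, H2AC8, H2BC12, H2BC5 and H2BC4 lie higher in H2AS40-KD and H1-2 lower without overlap, while the H3 and H4 genes overlap.

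The genes that make, process and degrade histone messages gave 0 calls in limma out of 29 tested, with 7 at an unadjusted p under 0.05 (16.5% of all tested genes) and a median log2 fold change of 0.05. The list held activators of the promoters (NPAT, HINFP, NFYA, NFYB, NFYC and POU2F1, which encodes OCT1), the cyclin E and CDK2 genes, stem-loop processing factors and decay factors. The smallest p-values were those of NFYC, a subunit of NF-Y, with 60.6, 59.8 and 58.9 TPM in the controls, against 70.8, 71.4 and 66.1 TPM in the knockdown libraries (limma adjusted p = 0.0927), and of ZNF473, a zinc finger protein of histone message processing, with 22.9 ± 0.778 and 30.1 ± 3.596 TPM (SD, n = 3 each, limma adjusted p = 0.113). Both were higher in each knockdown library, without a call. NFYB and NFYA, the other subunits of NF-Y, had lower values without overlap. NFYB had means of 26.8 and 23.2 TPM (limma adjusted p = 0.241) and NFYA of 45.4 and 42.9 TPM (limma adjusted p = 0.519). Of the 29 genes 7 were higher and 3 lower without overlap, beside 12.9% and 11.3% of all tested genes. SLBP had means of 98.5 and 106 TPM and NPAT of 12.4 and 13.1 TPM, with overlap in each.

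DNA replication genes, which are expressed in the same phase, gave 0 calls in limma out of 22 tested, with 8 at an unadjusted p under 0.05 (16.5% of all tested genes) and a median log2 fold change of 0.05. MCM7, a helicase subunit, had 272, 269 and 271 TPM in the controls, against 310, 306 and 296 TPM in the knockdown libraries (limma adjusted p = 0.0551). CHAF1A, a subunit of the chaperone that deposits H3 and H4 on new DNA, had 53.9, 50.5 and 52.3 TPM against 64.7, 61.2 and 61.2 TPM (limma adjusted p = 0.0666). Of the 22 genes 9 did not overlap between labels, 7 higher and 2 lower, beside 24.2% of all tested genes.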

How the data were processed

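Total RNA was extracted with a miniprep kit and made into libraries with an RNA library kit, per the labels' protocols. The deposited values are gene-level TPM, normalized by the authors to 1000000 per library. Which program quantified them is not stated. Per the submitters' processing notes, Bowtie2 and MACS2 were among the tools and hg38 was the build, with no role or version. TPM keep no depth, so no counting interval is given. No library duplicated another, since any 2 shared identical TPM in 0.113% of genes at most.

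Symbols were found for 34436 of 37247 rows by unversioned identifier. Coordinates and promoters are from RefSeq's GRCh38.p14, matched by symbol. Differences were tested with limma 3.58.1 in R 4.3.3 (eBayes with an intensity trend, two-sided) on log2(TPM + 1), so fold changes of low genes are understated. The step was tested on simulated data, where recovery was required only for a planted change larger than that of H2BC5. Class sums used all matched genes. Members and lists were chosen with earlier results of these data known. The genes named were, per class, the leading genes and the 4 most abundant, called genes, and genes of at least 5 TPM without overlap, and of the other lists the 2 with the smallest p. Further genes, such as NFYA, NFYB, SLBP, NPAT and H2BC21, were named after their values were seen. Alternatives covered the pseudocount, filter, scaling, trend, replicate block and each library left out. The planned split of H2A genes by residue 40 was not made, as no protein sequence was used. One marker is not reported here.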

Additional observations from a re-analysis of the deposited data

How the results depend on the processing

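The count of called histone genes, 1 as reported, was 1 under pseudocounts of 0.1 and 0.5, a filter at 5 TPM, median-of-ratios scaling and quantile normalization. It was 0 with no filter (more genes adjusted over), without an intensity trend and with the replicate block, and 0 in each fit that left out 1 library. For the last 2 settings the number of calls over all genes was 10 without a trend and 0 with the block, against 178, and between 5 and 159 with a library left out (98 with no filter). Libraries numbered 1, 2 and 3 in both groups showed little shared deviation, with correlations of -0.0101, -0.0642 and -0.00154. These values cannot show whether libraries of the same number were made together. Histone-machinery calls stayed at 0 throughout, also in each fit without 1 library. Calls among DNA replication genes were 0 except for 1 (MCM7) with the 5 TPM filter, and 0 in each fit without 1 library.

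The log2 ratio of class sums was -0.07 for H1 and 0.14 for H2B, and moved beyond the replicate SD without the most abundant member, to -0.14 and 0.18. The H1 genes other than H1-2 overlapped between groups (pooled within-group SD 0.31 on the log2 scale). For H2A it was 0.07, and 0.03 with overlap without H2AC6. Without 1 library it ran from -0.08 to -0.05 for H1, 0.04 (without replicate 1 of Control-KD) to 0.09 for H2A, 0.13 to 0.16 for H2B, 0.06 to 0.22 for H3 and 0.06 to 0.15 for H4. Among uncalled genes the sign turned with a library left out for H1-4 (-0.31 to 0.0893), H1-3 (-0.43 to 0.0501), H2BC11 (-0.0728 to 0.18), H3C13 (-0.0555 to 0.34), H3C12 (-0.35 to 0.15) and H4C11 (-0.12 to 0.0514). The cause was not tested. The alternatives for H2A sums by residue 40 were not run. Unknown depth limits what the values of low genes can show.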

Other observations

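Histone genes known from the male germ line were at or near 0. The testis forms H1-6, H2AC1 and H2BC1 averaged 0.721, 0.0548 and 0.142 TPM over the 6 libraries, with H2AC1 listed at 0 in 5 libraries and H2BC1 in 2. Low levels were not particular to these forms. In all, 17 of the 64 genes averaged under 1 TPM, among them H1-5 (0.607 TPM) and H1-1 (0.0268 TPM). Such low TPM without counts cannot be set apart from stray reads.

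H2BC10, a low H2B gene named after its values were seen, had 0.353, 1.22 and 0.807 TPM in the controls, against 2.61, 2.37 and 1.75 TPM in the knockdown libraries. Its groups did not overlap and its log2 fold change of 0.88 was the highest of the 47 tested genes, but it was not called (limma adjusted p = 0.137), and it passed the filter through the libraries in which it was high.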
